A study of Mus musculus with 9 samples.

Results

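Expression of 10 mouse genes of the ATF4 stress response and of serine synthesis (Atf4, Ddit3, Ddit4, Trib3, Chac1, Asns, Psat1, Phgdh, Slc7a3 and Cth) was followed across 9 Affymetrix arrays. The genes were chosen by name, with earlier results of these data known. All 10 were found on the array among 22180 genes tested, each with 1 probe set of its own and with no probe set shared with another gene. The cells were mouse embryonic stem cells of the NG4 line, 129/Sv cells that carry a green fluorescent reporter of Nanog, grown on gelatin with the cytokine LIF. All of them had received a pLKO.1 lentivirus and puromycin at 2 μg/mL for 72 h. The virus carried a hairpin against Phf5a (shPhf5a, 3 arrays), a hairpin against Paf1 (shPaf1, 3 arrays) or a control hairpin (shControl, 3 arrays). Phf5a is a PHD-finger protein of the SF3b splicing complex, Paf1 names the complex that travels with elongating RNA polymerase II, and the title of the series asks how Phf5a bears on elongation in pluripotency. Each group rests on 1 hairpin as far as the labels say, so that effects of a hairpin on other transcripts cannot be told apart from those of its target.

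ATF4 is a transcription factor of the integrated stress response. Kinases that sense amino acid shortage, misfolded protein, heme shortage or double-stranded RNA phosphorylate the initiation factor eIF2, which slows protein synthesis as a whole while raising translation of the Atf4 message, so that much of the control of ATF4 is exerted on its protein and not on its mRNA. ATF4 then binds, often with a C/EBP partner, at composite elements of genes that import and make amino acids (Asns, Psat1, Phgdh, Slc7a3, Cth) and of genes that shape the outcome of stress (Ddit3, Trib3, Chac1, Ddit4). Embryonic stem cells divide quickly and draw heavily on serine, glycine and folate-bound carbon for nucleotides and methyl groups.

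The stretches just upstream of some of these genes are shown to let matches to the ATF4 element, and their absence, be seen. RefSeq's promoter windows (build GRCm38.p6) matched 8 of the 10 genes, with 2 windows for Psat1; Slc7a3 and Cth were not in that table. Each window covers 250 bases before the annotated start and 50 after it, and both strands were searched. Sequence outside the windows was not searched, so that absence of a match holds for the windows only. The letters TGATGNAA, a core of the C/EBP-ATF element, occurred in the windows of Asns, Chac1 and Trib3, and in 3.97% of all 32851 windows. A variant, TGNTGCAA, was added after the windows had been read. It occurred in the windows of Chac1, Psat1 and Trib3 and in 3.22% of all windows, and it shares the Chac1 match with the first motif. The 250 upstream bases are printed 5′ to 3′ along the gene, with matches in capitals, for the 4 genes with a match and, without one, for Ddit3 and Ddit4, the genes called higher in both knockdowns. Neither motif was found in the windows of Phgdh and Atf4 either, though Phgdh fell in both knockdowns and Atf4 in shPaf1, and Asns holds a match but passed in neither knockdown.
Asns, chr6:7693210-7693459, minus strand: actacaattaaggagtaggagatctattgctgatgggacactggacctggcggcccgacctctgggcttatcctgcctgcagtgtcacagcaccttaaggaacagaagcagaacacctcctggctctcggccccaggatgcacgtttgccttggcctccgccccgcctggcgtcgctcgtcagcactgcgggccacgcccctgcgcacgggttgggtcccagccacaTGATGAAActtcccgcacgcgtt
Chac1, chr2:119350992-119351241, plus strand: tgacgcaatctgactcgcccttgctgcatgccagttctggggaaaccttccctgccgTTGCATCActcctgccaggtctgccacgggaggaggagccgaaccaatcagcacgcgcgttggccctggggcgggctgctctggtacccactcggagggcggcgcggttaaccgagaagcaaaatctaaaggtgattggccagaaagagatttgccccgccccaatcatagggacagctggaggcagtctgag
Trib3, chr2:152344061-152344310, minus strand: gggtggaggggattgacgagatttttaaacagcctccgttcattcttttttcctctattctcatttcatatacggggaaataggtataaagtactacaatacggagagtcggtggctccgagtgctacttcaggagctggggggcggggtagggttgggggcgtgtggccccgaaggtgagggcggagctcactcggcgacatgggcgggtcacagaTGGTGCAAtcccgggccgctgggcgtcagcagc
Psat1, chr19:15925060-15925309, minus strand: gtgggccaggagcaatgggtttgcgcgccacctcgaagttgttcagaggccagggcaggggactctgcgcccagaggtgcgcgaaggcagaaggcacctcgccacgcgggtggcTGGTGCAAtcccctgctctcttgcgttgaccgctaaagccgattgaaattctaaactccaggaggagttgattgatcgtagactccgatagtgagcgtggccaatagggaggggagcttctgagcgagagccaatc
Ddit3, chr10:127290543-127290792, plus strand: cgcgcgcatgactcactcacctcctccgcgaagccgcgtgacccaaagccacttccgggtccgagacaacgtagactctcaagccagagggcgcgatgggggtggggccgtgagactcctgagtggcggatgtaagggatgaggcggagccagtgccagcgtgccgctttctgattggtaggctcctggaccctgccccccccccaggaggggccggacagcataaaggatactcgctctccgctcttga
Ddit4, chr10:59951771-59952020, minus strand: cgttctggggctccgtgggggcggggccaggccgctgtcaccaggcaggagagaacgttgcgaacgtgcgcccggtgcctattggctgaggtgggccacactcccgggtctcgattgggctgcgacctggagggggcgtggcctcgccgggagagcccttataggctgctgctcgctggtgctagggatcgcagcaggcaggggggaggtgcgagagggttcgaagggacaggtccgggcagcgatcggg
The Asns match, TGATGAAA, starts 23 bases before the annotated start. The same letters open the nutrient-sensing element described in the human ASNS promoter. The Chac1 match lies 193 bases upstream and reads TGATGCAA on the opposite strand. Trib3 holds TGGTGCAA 33 bases upstream and, beyond the printed stretch, TGATGTAA on the opposite strand at position 15 after the start. Psat1 holds TGGTGCAA 136 bases upstream in the window printed. A match is a description of letters, and these arrays hold no measurement of ATF4 binding.

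The targeted genes were lower under their own hairpins and, by less, under the other hairpin. Phf5a fell to 34.4%, 55.9% and 39.6% of the control mean in shPhf5a replicates 1, 2 and 3, and Paf1 fell to between 37.7% and 38.9% on the 3 shPaf1 arrays. Phf5a was also 1.49-fold lower in shPaf1 (64.3%, 62.0% and 76.2% of the control mean, adjusted p = 0.0183), and Paf1 was 1.19-fold lower in shPhf5a (76.5%, 95.7% and 81.8%, adjusted p = 0.0267). ShPhf5a replicate 2, the array with the weakest knockdown, stood apart: its correlation with the control arrays over genes was 0.986, against 0.972 to 0.975 for the other shPhf5a arrays, and it lay nearest the control mean for 8 of the 10 genes and for 50.5% of all genes. The mean of 10 stem cell markers was 10.20 to 10.46 in shPhf5a, 10.15 to 10.18 in shPaf1 and 10.68 to 10.71 in shControl, on the log2 scale. Among these markers 1, Dppa5a, had a mean over the arrays (6.04) below the median of all genes. In each knockdown 8 of those 10 markers were called lower and 0 higher, where 20.7% (shPhf5a) and 17.8% (shPaf1) of all genes were called lower, and 35.2% and 30.7% of the genes above the median level. The mean of 9 fibroblast markers was 6.04 to 6.10, 6.24 to 6.32 and 6.01 to 6.03 in shPhf5a, shPaf1 and shControl, and that of 5 macrophage and blood markers was 6.20 to 6.35, 6.48 to 6.60 and 6.36 to 6.51. Of these, 5 fibroblast and 4 macrophage and blood markers had a mean below the median of all genes. Of the 9 fibroblast markers, 1 was called higher in shPhf5a and 3 in shPaf1, with 0 lower in each. Pdgfra rose by 0.58 (SE 0.08) and by 0.96 (SE 0.08), and Dcn by 0.57 (SE 0.06) in shPaf1. Of the 5 macrophage and blood markers, 1 was lower in shPhf5a and 1 higher in shPaf1. Over all genes 16.7% were called higher in shPhf5a and 18.0% in shPaf1. The part that such shifts have in the results was not tested. In bulk RNA, fewer cells of a type and less RNA per cell cannot be told apart.

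The 10 genes did not move as a block. Against shControl, 2 genes were higher and 6 lower in shPhf5a, and 2 were higher and 7 lower in shPaf1, by limma at an adjusted p under 0.05 over all genes. Of these genes, Psat1, Phgdh, Cth, Slc7a3, Chac1 and Trib3 fell in both knockdowns, whereas Ddit3 and Ddit4 rose in both. Asns passed the test in neither knockdown, and Atf4 fell in shPaf1 alone by that test. Calls were common in these data: in shPhf5a 16.7% of all genes were called higher and 20.7% lower (37.4% called), and in shPaf1 18.0% and 17.8% (35.8% called). Each of the 10 had a mean above the median of all genes (6.70), and among genes above that level 62.1% were called in shPhf5a (26.9% higher and 35.2% lower) and 59.9% in shPaf1 (29.2% and 30.7%). The median log2 change of the 10 was -0.28 in shPhf5a and -0.64 in shPaf1, beside -0.03 and -0.01 over all genes. By the arrays themselves, 3 genes lay wholly above and 6 wholly below the controls in shPhf5a, as did 19.9% and 25.9% of all genes (45.8% in all). In shPaf1 these were 2 and 7 genes, against 23.2% and 25.0% of all genes (48.3% in all). Of the 10, 6 were called lower in both knockdowns and 2 higher in both, against 12.0% and 10.6% of all genes. These 2 shares were not taken over the genes above the median level alone, where calls were more common. Both knockdowns were set against the same control arrays, so that their changes are not independent of each other.

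**Figure D1:**
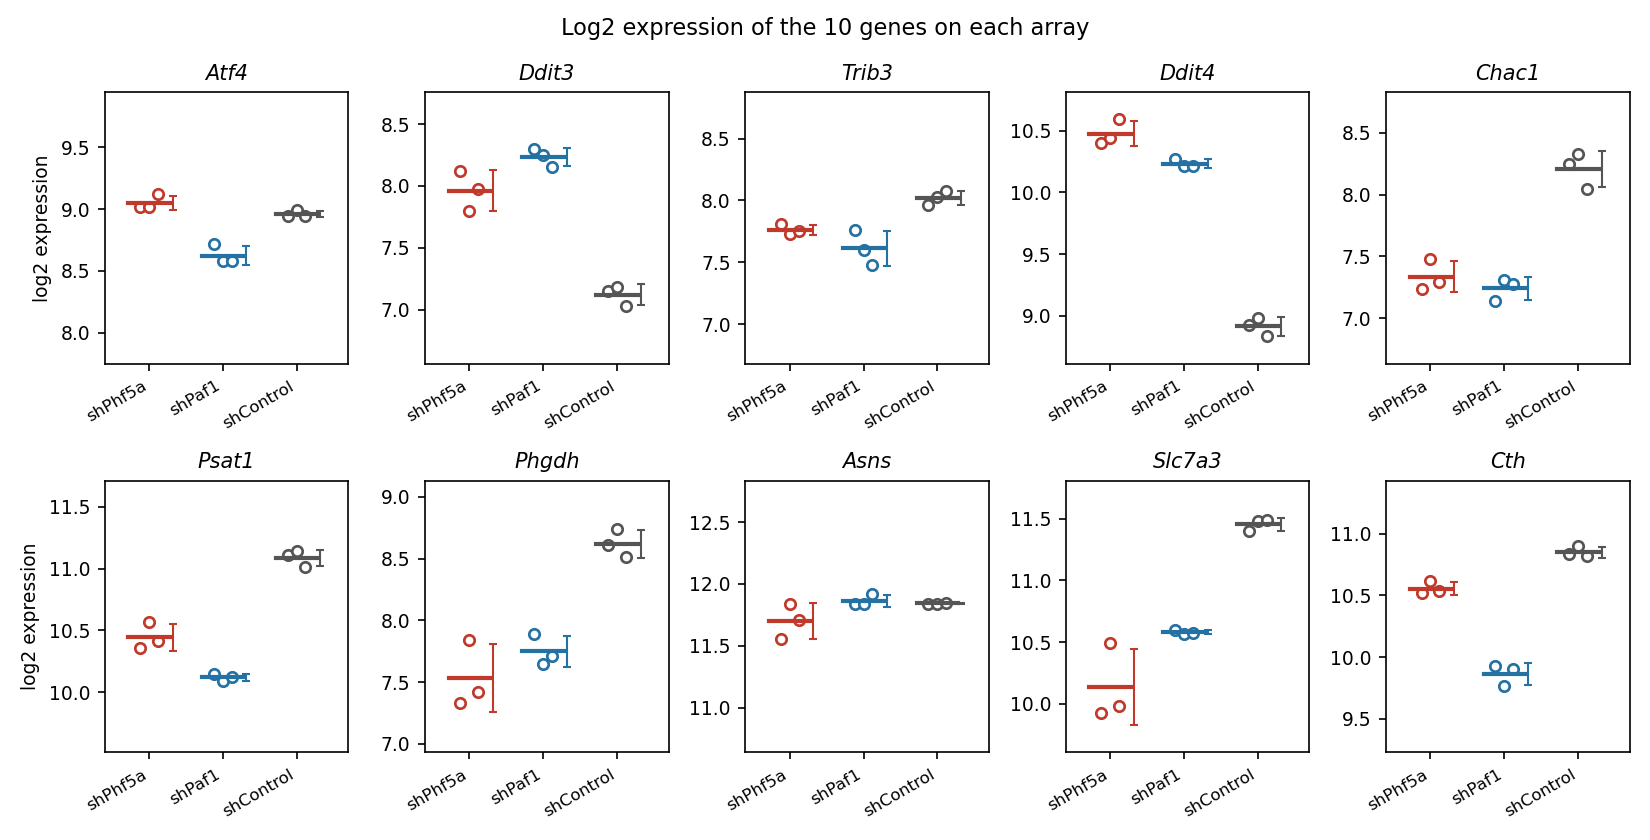
Log2 expression (vertical axis, each panel spanning the same number of log2 units) of the 10 genes on the 3 shPhf5a, 3 shPaf1 and 3 shControl arrays. Points are arrays, horizontal lines are group means and bars to their right are SD; Ddit3 and Ddit4 lie above the control arrays in both knockdowns, and Trib3, Chac1, Psat1, Phgdh, Slc7a3 and Cth lie below them.

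Atf4 itself read 9.02, 9.02 and 9.12 log2 units on the shPhf5a arrays, 8.72, 8.58 and 8.58 on the shPaf1 arrays, and 8.94, 8.99 and 8.95 on the shControl arrays. The shPaf1 arrays were the lowest 3, and the shPhf5a arrays all lay slightly above the controls. Its mRNA fell by 0.34 in shPaf1 (SE 0.05, 1.26-fold, adjusted p = 0.000872, n = 3 arrays per group in every test here) and was 0.09 higher in shPhf5a (SE 0.05, 95% interval -0.03 to 0.21), which did not pass (adjusted p = 0.238). Since the ATF4 protein is set largely by translation, these values describe the message only.

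Ddit3 encodes CHOP, a C/EBP-family factor that is induced when stress persists and that favours cell death. It stood at 8.12, 7.79 and 7.98 in shPhf5a, at 8.30, 8.25 and 8.16 in shPaf1, and at 7.15, 7.18 and 7.03 in shControl. All knockdown arrays exceeded all control arrays. The rise of Ddit3 came to 0.84 in shPhf5a (SE 0.08, 1.79-fold, adjusted p = 5.34e-05) and by 1.11 in shPaf1 (SE 0.08, 2.17-fold, adjusted p = 8.07e-06).

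Ddit4 encodes REDD1, which restrains the growth kinase mTORC1 and is also known as a target of p53, of the hypoxia factor HIF and of glucocorticoids. Its values were 10.40, 10.44 and 10.59 in shPhf5a, 10.27, 10.21 and 10.21 in shPaf1, and 8.93, 8.98 and 8.83 in shControl. The knockdown arrays again lay wholly above the control arrays. The rise was 1.56 in shPhf5a (SE 0.06, 2.95-fold, adjusted p = 9.53e-07) and 1.32 in shPaf1 (SE 0.06, 2.49-fold, adjusted p = 9.1e-07), the largest of the 10 genes in either direction in both knockdowns. By size of rise Ddit4 ranked 134 in shPhf5a and 203 in shPaf1 among the 22180 genes.

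Trib3 encodes a pseudokinase that ATF4 and CHOP induce and that damps ATF4 activity in turn. The arrays gave 7.81, 7.73 and 7.75 in shPhf5a, 7.76, 7.60 and 7.48 in shPaf1, and 7.96, 8.03 and 8.08 in shControl. It thus moved against Ddit3, with every knockdown array below every control array but by a small margin. Trib3 fell by 0.26 in shPhf5a (SE 0.07, adjusted p = 0.0157), and it did not pass when shControl replicate 3 was omitted (-0.23, adjusted p = 0.0594). In shPaf1 the fall was 0.41 (SE 0.07, 1.33-fold, adjusted p = 0.00121).

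Chac1 encodes a cytosolic enzyme that cleaves glutathione, and in stressed cells it is among the genes induced downstream of ATF4. It read 7.23, 7.48 and 7.29 in shPhf5a and 7.13, 7.31 and 7.28 in shPaf1, against 8.25, 8.32 and 8.04 in shControl. The knockdowns overlapped each other and lay below the controls. The fall of Chac1 was 1.83-fold in shPhf5a (0.87, SE 0.09, adjusted p = 6.5e-05) and 1.95-fold in shPaf1 (0.97, SE 0.09, adjusted p = 2.68e-05). The stress-outcome genes therefore split, with Ddit3 and Ddit4 higher and Trib3 and Chac1 lower in both knockdowns.

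Serine is made from the glycolytic intermediate 3-phosphoglycerate by enzymes acting in turn, of which Phgdh is the entry step and Psat1 the transaminase that follows. Phgdh read 7.33, 7.84 and 7.42 in shPhf5a and 7.89, 7.65 and 7.71 in shPaf1, against 8.61, 8.74 and 8.51 in shControl. No knockdown array reached the lowest control array, and shPhf5a replicate 2 was the nearest of its group. The fall was 1.09 in shPhf5a (SE 0.13, 2.13-fold, adjusted p = 0.000132) and 0.87 in shPaf1 (SE 0.13, 1.83-fold, adjusted p = 0.000439).

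Psat1 gave 10.36, 10.57 and 10.41 in shPhf5a, 10.15, 10.09 and 10.12 in shPaf1, and 11.11, 11.14 and 11.02 in shControl. The 3 groups did not overlap, and the shPaf1 arrays were the lowest. Levels of Psat1 were 1.56-fold lower in shPhf5a (-0.64, SE 0.06, adjusted p = 4.96e-05) and 1.96-fold lower in shPaf1 (-0.97, SE 0.06, adjusted p = 3.76e-06). Psph, the phosphatase that completes the pathway and is not among the 10, fell by 0.87 (SE 0.07, adjusted p = 1.64e-05) and by 0.96 (SE 0.07, adjusted p = 6.53e-06), so that each enzyme of serine synthesis was lower in shPhf5a and in shPaf1.

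Asns makes asparagine and is a textbook ATF4 target, with the element printed in capitals close to its start. It read 11.55, 11.84 and 11.71 in shPhf5a, 11.84, 11.84 and 11.92 in shPaf1, and 11.84, 11.84 and 11.85 in shControl. The control arrays agreed to within 0.02, and shPhf5a replicate 2 was at their level while replicates 1 and 3 were below it. Neither knockdown passed: the change was -0.14 in shPhf5a (SE 0.07, 95% interval -0.30 to 0.01, adjusted p = 0.145) and 0.02 in shPaf1 (SE 0.07, 95% interval -0.13 to 0.18, adjusted p = 0.851). Without shPhf5a replicate 2 the fall in shPhf5a was 0.21 and passed (adjusted p = 0.0185), and after quantile normalization the changes were -0.03 in shPhf5a (adjusted p = 0.771) and 0.17 in shPaf1 (adjusted p = 0.065).

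Slc7a3 encodes CAT3, a transporter that brings arginine, lysine and ornithine into the cell. It showed 9.93, 10.49 and 9.99 in shPhf5a and 10.60, 10.57 and 10.58 in shPaf1, against 11.40, 11.48 and 11.49 in shControl. Here shPhf5a replicate 2 lay close to the shPaf1 arrays, and the other shPhf5a arrays were lower still. Slc7a3 was 2.50-fold lower in shPhf5a (-1.32, SE 0.12, adjusted p = 4.06e-05) and 1.83-fold lower in shPaf1 (-0.87, SE 0.12, adjusted p = 0.000369). By size of fall it ranked 67 among all genes in shPhf5a and 369 in shPaf1.

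Cth encodes cystathionine gamma-lyase, the enzyme that releases cysteine at the end of the transsulfuration pathway. Its arrays read 10.52, 10.61 and 10.53 in shPhf5a, 9.93, 9.76 and 9.90 in shPaf1, and 10.83, 10.90 and 10.82 in shControl. The groups did not overlap, with shPaf1 far the lowest. The fall was 0.29 in shPhf5a (SE 0.06, 1.23-fold, adjusted p = 0.00253; 0.19 after quantile normalization, adjusted p = 0.0269) and 0.98 in shPaf1 (SE 0.06, 1.98-fold, adjusted p = 2.24e-06).

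The knockdowns were also compared with each other, to ask where shPhf5a differed from shPaf1, each of which also lowered the target of the other. Of the 10 genes 4 were higher and 2 lower in shPhf5a than in shPaf1, where 12.7% and 16.3% of all genes were (29.0% called), and 20.7% and 27.4% of the genes above the median level (48.1% called). The arrays of the knockdowns did not overlap for those 6 genes, as for 16.3% (higher) and 21.3% (lower) of all genes (37.7% in all). Cth differed most, at 0.69 log2 units higher in shPhf5a (SE 0.06, 1.61-fold, adjusted p = 2.67e-05). Atf4 was 0.43 higher (SE 0.05, 1.34-fold, adjusted p = 0.000325) and Psat1 0.33 higher (SE 0.06, 1.25-fold, adjusted p = 0.00335). These 3 calls held in each of the 18 alternative settings, including the omission of each array in turn. The others were less steady. Slc7a3 was 0.45 lower in shPhf5a (SE 0.12, adjusted p = 0.0222), Ddit3 0.27 lower (SE 0.08, adjusted p = 0.0345) and Ddit4 0.24 higher (SE 0.06, adjusted p = 0.0157), and each lost its call when certain single arrays were omitted.

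Without shPhf5a replicate 3 or without shPaf1 replicate 2 only 3 of the 10 were called, the 3 named as steady. Slc7a3 also lost its call without shPhf5a replicate 1 or shPaf1 replicate 1 or 3, Ddit4 without shPaf1 replicate 3, and Ddit3 without shControl replicate 1, shPhf5a replicate 2 or shPaf1 replicate 1. Over the omissions that ended a call, adjusted p-values ran between 0.0526 and 0.116. For Chac1 the difference was 0.09 (95% interval -0.11 to 0.30) and for Trib3 0.15 (-0.01 to 0.31), and neither passed, though Trib3 did without shPaf1 replicate 1 (adjusted p = 0.0302). Phgdh differed by -0.22 (-0.50 to 0.07) and Asns by -0.16 (-0.32 to -0.01), which did not pass after adjustment (adjusted p = 0.257 and 0.11). Without shPhf5a replicate 2 both passed, with Phgdh at -0.38 (adjusted p = 0.0089) and Asns at -0.23 (adjusted p = 0.0138).

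**Figure D2:**
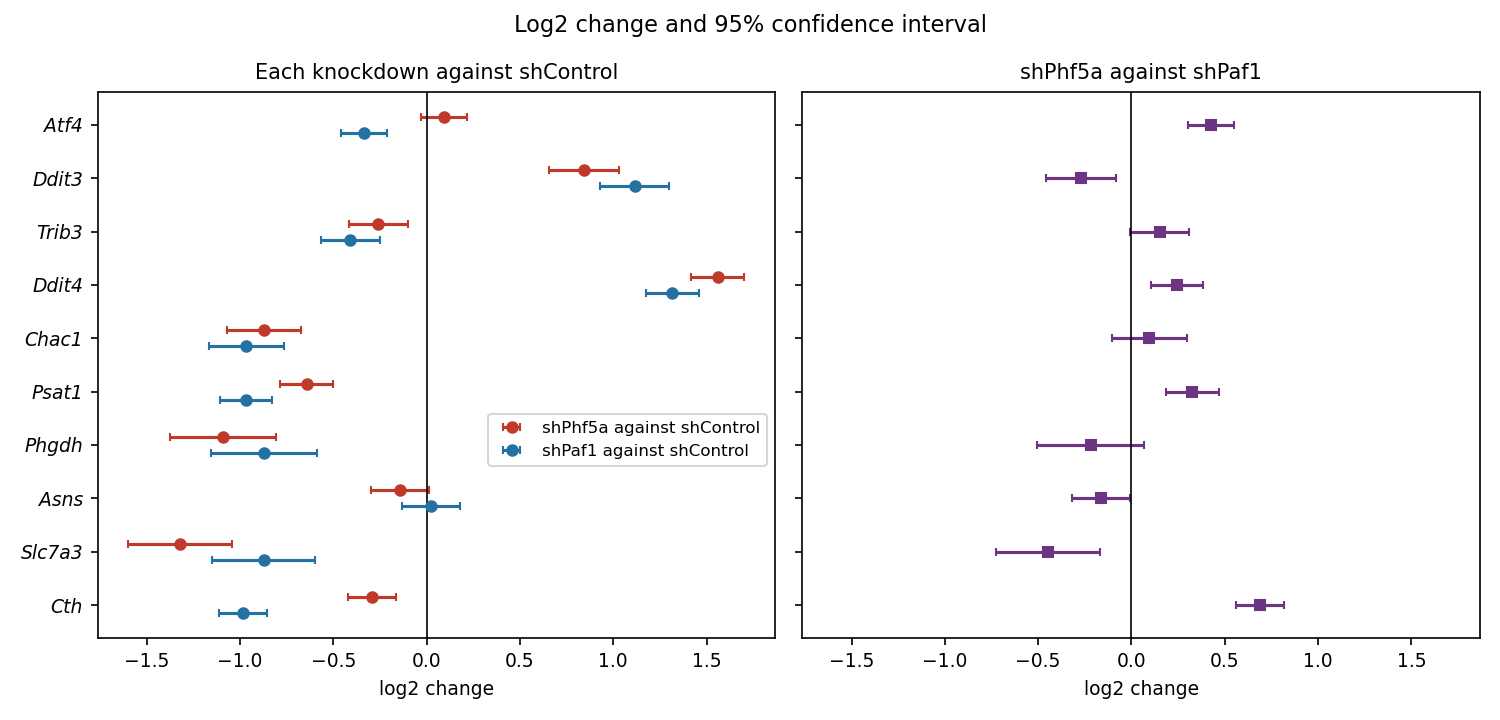
Log2 change of each gene with its 95% confidence interval from limma (horizontal axis), for shPhf5a and shPaf1 each against shControl (left) and for shPhf5a against shPaf1 (right). Ddit4 is 1.56 and 1.32 above the control, Slc7a3 is 1.32 and 0.87 below it, and Cth has the widest separation between the knockdowns at 0.69.

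Neighbouring pathways were read from lists of genes around ATF4. Their counts of calls stand beside 16.7% of all genes higher and 20.7% lower in shPhf5a, and 18.0% and 17.8% in shPaf1. Among genes above the median level these shares were 26.9% and 35.2% in shPhf5a, and 29.2% and 30.7% in shPaf1. Among 10 measured genes of serine, glycine and folate-bound carbon metabolism, 0 were higher and 7 lower in shPhf5a, and 1 was higher and 6 lower in shPaf1. The medians were -0.51 and -0.36. Besides Psph, the serine hydroxymethyltransferases Shmt1 (-0.83, SE 0.11, and -0.60, SE 0.11, in shPhf5a and shPaf1) and Shmt2 (-0.63, SE 0.09, and -0.56, SE 0.09) fell, as did Mthfd2, a mitochondrial folate enzyme (-0.66, SE 0.09, and -0.36, SE 0.09). Of 11 genes of methionine, transsulfuration and glutathione metabolism, 4 were higher and 7 lower in shPhf5a and 3 higher and 6 lower in shPaf1. Ahcy, which hydrolyses S-adenosylhomocysteine, fell by 1.01 (SE 0.13) and by 0.76 (SE 0.13), while Gclc, the catalytic subunit of the first step of glutathione synthesis, rose by 0.74 (SE 0.07) and by 0.41 (SE 0.07).

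The cytosolic aminoacyl-tRNA synthetases, which load amino acids on tRNA and many of which ATF4 can induce, were lower in 11 and higher in 1 of 17 in shPhf5a, and lower in 9 and higher in 1 in shPaf1, with medians of -0.33 and -0.28. The leucyl enzyme Lars fell by 0.86 (SE 0.10) and by 1.01 (SE 0.10). Vars fell by 0.91 (SE 0.11) in shPhf5a and read 0.15 (SE 0.11, not passed) in shPaf1. Further ATF4 targets were mixed. Of 22 measured, 2 were higher and 9 lower in shPhf5a, and 3 were higher and 7 lower in shPaf1, with medians of -0.04 and -0.08, close to those of all genes. For both lists the shares over all genes were 16.7% higher and 20.7% lower in shPhf5a, and 18.0% and 17.8% in shPaf1. Above the median level they were 26.9% and 35.2%, and 29.2% and 30.7%. Atf3, a stress-induced repressor that p53 and other signals also raise, rose by 1.49 (SE 0.08) and by 0.99 (SE 0.08), and Sesn2, a leucine sensor upstream of mTORC1 and a p53 target, rose by 0.81 (SE 0.07) and by 0.59 (SE 0.07). The alanine transaminase Gpt2 fell by 0.84 (SE 0.07) and by 1.02 (SE 0.07), and the neutral amino acid transporter Slc1a5 by 0.71 (SE 0.11) and by 0.62 (SE 0.11).

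Upstream of ATF4, 4 of 14 measured genes of the eIF2 kinases and the exchange factor eIF2B were higher and 6 lower in shPhf5a, and 3 were higher and 4 lower in shPaf1. Eif2ak3, which encodes the endoplasmic reticulum kinase PERK, rose by 0.52 (SE 0.05) and by 0.58 (SE 0.05). The double-stranded RNA kinase gene Eif2ak2 fell by 0.36 (SE 0.11) and by 0.71 (SE 0.11), with a mean over the arrays (6.43) below the median of all genes. The eIF2B subunit gene Eif2b4 fell by 0.61 (SE 0.08) in shPhf5a and by 0.37 (SE 0.08) in shPaf1. Eif2b2, of the same factor, fell by 0.63 (SE 0.07) in shPhf5a and read 0.001 (SE 0.07, not passed) in shPaf1. Of 19 genes of the other branches of the unfolded protein response, 5 were higher and 5 lower in shPhf5a, and 5 higher and 4 lower in shPaf1. Beside both lists, 16.7% of all genes were higher and 20.7% lower in shPhf5a, and 18.0% and 17.8% in shPaf1. Among genes above the median level these shares were 26.9% and 35.2%, and 29.2% and 30.7%. In those other branches the sensor gene Ern1, which encodes IRE1, rose by 0.55 (SE 0.08) and by 0.95 (SE 0.08). Xbp1 of the same list fell by 0.30 (SE 0.06) and by 0.51 (SE 0.06). Hspa5 passed in neither knockdown (0.004, SE 0.04, and 0.05, SE 0.04). The chaperone partner Sdf2l1 fell by 1.23 (SE 0.09) and by 0.69 (SE 0.09). Dnajb9, a target of the IRE1 branch, rose by 0.81 (SE 0.07) in shPaf1 and read -0.02 (SE 0.07, not passed) in shPhf5a, a difference of -0.83 between the knockdowns (SE 0.07, adjusted p = 3.89e-05).

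Ddit4 was set beside other brakes on mTORC1 and other HIF targets. Of 11 mTORC1 brake genes, 5 were higher and 3 lower in shPhf5a, and 8 were higher and 3 lower in shPaf1, with medians of 0.15 and 0.44. Its paralogue Ddit4l rose by 2.06 (SE 0.11) in shPhf5a and by 0.66 (SE 0.11) in shPaf1. Castor1 went the other way and fell by 0.76 (SE 0.14) and by 0.41 (SE 0.14). Nprl2 fell by 0.41 (SE 0.08) in shPhf5a and rose by 0.31 (SE 0.08) in shPaf1. The tuberous sclerosis genes Tsc1 and Tsc2 rose by 0.86 (SE 0.06) and 0.73 (SE 0.04) in shPaf1, beside 0.03 (SE 0.06, not passed) and 0.21 (SE 0.04) in shPhf5a. HIF targets were higher in 3 and lower in 3 of 13 in shPhf5a, and higher in 5 and lower in 4 in shPaf1. Pdk1, which turns pyruvate away from mitochondria, fell by 1.34 (SE 0.08) in shPhf5a and by 0.25 (SE 0.08) in shPaf1. The collagen hydroxylase P4ha2 rose by 1.78 (SE 0.12) in shPhf5a and by 0.91 (SE 0.12) in shPaf1. Other amino acid transporters, the class of Slc7a3, were higher in 4 and lower in 6 of 12 in shPhf5a and higher in 2 and lower in 2 in shPaf1. Over all genes, 16.7% were higher and 20.7% lower in shPhf5a, and 18.0% and 17.8% in shPaf1. Above the median level, 26.9% were higher and 35.2% lower in shPhf5a, and 29.2% and 30.7% in shPaf1. The glutamate transporter gene Slc1a1 rose by 1.17 (SE 0.08) in shPhf5a and read 0.16 (SE 0.08, not passed) in shPaf1. Slc7a7, a partner in cationic amino acid export, fell by 0.78 (SE 0.10) in shPhf5a and read 0.19 (SE 0.10, not passed) in shPaf1. Between the knockdowns these genes differed by 1.02 (adjusted p = 2.69e-05) and -0.96 (adjusted p = 0.000114).

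**Figure D3:**
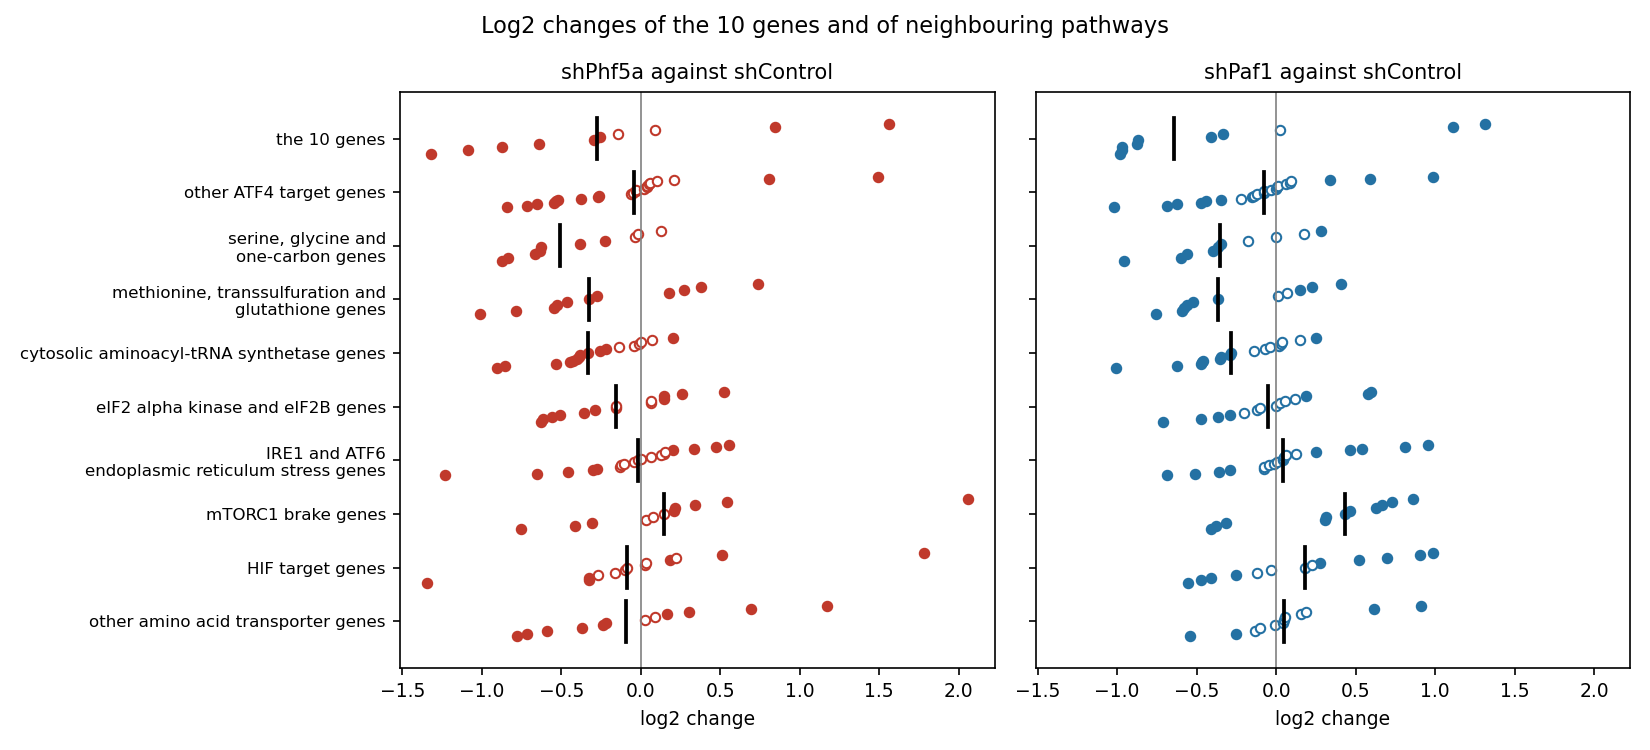
Log2 change (horizontal axis) of each measured gene of 10 lists against shControl, in shPhf5a (left) and shPaf1 (right). Filled points passed at an adjusted p under 0.05, open points did not, and black bars are list medians; the serine list has medians of -0.51 and -0.36, and the further ATF4 targets have medians of -0.04 and -0.08.

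For Atf4, Asns and Ddit4 the genes with the most similar profile over the 9 arrays were found by Pearson's r among 10336 genes above the median level. The arrays fall into 3 groups, so that r for Atf4 and Ddit4 reflects their group means to a large part, and for Asns it also reflects the spread within shPhf5a, where replicate 2 was the highest. For Atf4 they were Atp6v1h, a subunit of the proton pump of lysosomes (r = 0.993), Cnot9, of the CCR4-NOT deadenylase complex (0.991), and Ampd3, an AMP deaminase (0.988). For Asns they were Cir1 (0.984), Pcmt1 (0.983) and the histone chaperone gene Hira (0.979). Pcmt1, for example, read 8.64, 9.22 and 8.93 in shPhf5a, with replicate 2 the highest as for Asns. For Ddit4 they were Anxa3, an annexin (0.997), Marveld1 (0.996) and Mmrn2 (0.994). Group means of Anxa3 were 9.69 ± 0.09, 9.57 ± 0.03 and 8.41 ± 0.10 in shPhf5a, shPaf1 and shControl (SD, n = 3 arrays each).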

How the data were processed

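RNA of 9 samples was measured on Affymetrix expression arrays, from 125 ng of total RNA each, per the labels' protocols. The authors deposited log2 values, 1 per probe set and array; the software and its background correction and normalization are not stated in the labels, and the log base was inferred from the range (4.35 to 13.7). If the base were another, folds would differ and calls would not. Groups and replicate numbers came from the titles. Nothing says that replicates were separate cultures, so the p-values reflect variation among these 9 samples that could be technical. The table names no scan or slide, and batches were therefore not tested.

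Of 33793 probe sets, 23521 carried 1 gene symbol, 1814 several and 8458 none listed; 23328 of the first kind matched RefSeq by gene ID with the same symbol. The brightest probe set over all arrays stood for each of 22180 genes. Changes came from limma 3.58.1 (lmFit, eBayes) in R 4.3.3, fitting a mean for each of the groups in 1 model of the 9 arrays, with Benjamini-Hochberg adjustment over all genes at 0.05; the script was checked on simulated data. Of 177 genes in 13 lists, including the 10, 163 were measured. From each list up to 4 called genes with the largest changes per comparison could be named, and for Atf4, Asns and Ddit4 the 3 most similar genes of other symbols, leaving out predicted loci, small RNAs and olfactory receptors. Xbp1 and Hspa5 were named outside this rule. The members and lists were chosen with earlier results of these data known. The number of arrays limits the precision.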

Additional observations from a re-analysis of the deposited data

How the results depend on the processing

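Against shControl, the count of called genes among the 10 was 8 in shPhf5a and 9 in shPaf1 under each of 9 alternative settings (quantile normalization, centring of each array, array weights, brighter genes only, probe sets averaged, every probe set tested, robust eBayes with a trend, a fit of the 6 arrays compared, and the replicate block). Over these settings the share of tested genes called ran from 33.7% to 64.9% in shPhf5a and from 34.3% to 63.1% in shPaf1. Omitting each array in turn gave 7 to 9 in shPhf5a and 9 to 9 in shPaf1. The share of tested genes called then ran from 32.1% to 39.8% and from 30.7% to 39.0%. No called change turned its sign, while Asns, which passed in neither knockdown with all arrays, ranged between -0.04 (centring) and 0.17 (quantile normalization) in shPaf1 and between -0.21 and -0.03 in shPhf5a, where it passed without shPhf5a replicate 2. For shPhf5a against shPaf1 the count was 6, from 4 to 7 over the settings and from 3 to 7 over the omissions. In that comparison 24.3% to 51.9% of tested genes were called over the settings and 23.3% to 32.8% over the omissions. There the calls of Ddit3 (adjusted p = 0.128, 0.0618 and 0.0695) were lost after quantile normalization, after centring and in the fit of 6 arrays, and that of Slc7a3 in the last (0.0658), while Asns passed after quantile normalization (0.0407) and with array weights (0.0375). The causes were not tested. The replicate numbers are shared between groups, but same-numbered arrays did not deviate together (correlations from -0.06 to 0.11), and the replicate block changed no call, with counts of 8, 9 and 6. Quantile normalization and centring moved the median of all genes by less than 0.1. Changes of dim genes may be compressed on such arrays.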
